A study of Mus musculus with 4 samples.

Results

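The AP-1 genes Fos, Fosb, Fosl1, Fosl2, Jun, Junb, Jund, Atf3 and Jdp2 were followed on 4 arrays. The RNA came from mouse palatal mesenchyme in culture, the connective tissue from which the secondary palate grows. The genes were taken by symbol: every probe set that the platform annotation pairs with 1 of these 9 symbols and no other was included. This gave 14 probe sets of 45101 on the array, for 9 of the 18193 genes with such a probe set. The cultures were primary cells of outbred wild-type embryos at embryonic day 14, and each group had 1 array. The groups were 5Z-7-Oxozeaenol (a Tak1 kinase inhibitor, oxozeaenol below) followed by TGF-beta2, SB431542 (an inhibitor of the TGF-beta type I receptor kinase) followed by TGF-beta2, TGF-beta2 alone, and untreated cells. Inhibitors were given 60 minutes before TGF-beta2, and TGF-beta2 was given for 120 minutes. None of the 4 cultures received an inhibitor without TGF-beta2, so the effect of an inhibitor alone was not measured. With no replicates, no difference below has a check against the spread between cultures, and no test was run.

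AP-1 is a family of transcription factors that bind DNA as pairs, joined through a leucine zipper. Fos proteins need a Jun partner, whereas Jun proteins can also pair with one another, and Atf3 and Jdp2 join the same network, often as repressors. Many of these genes are immediate early genes, transcribed within minutes of growth factor, cytokine or stress signals through the MAP kinases, and their transcripts decay quickly. TGF-beta reaches them both through Smad proteins and through Tak1, a kinase upstream of the JNK and p38 MAP kinases and of NF-kappaB.

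Signals are array intensities on a linear scale, with every array brought by the authors to a common average. Differences are on the scale of log2(signal + 21.7), and folds are computed from them, which understates differences of dim genes. Probe sets with a mean signal of at least 67.9, the median over the whole array, were kept. Of the 14 AP-1 probe sets 12 were kept, and all 9 genes kept at least 1. The brightest probe set stood for its gene. A gene was counted where 2 arrays were at least 2-fold apart, and each count is read against the share of all 11756 measured genes counted in the same way.

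The arrays had median signals of 66.3 to 72.7. Of 9 mesenchymal markers 8 were kept, with summed signals of 79931 to 92409, and Osr2, a palatal transcription factor gene, lay under the filter level at 6.75 to 30.4 on the 4 arrays. All 7 macrophage markers were kept, with sums of 46970 with oxozeaenol, 54463 with SB431542, 52026 with TGF-beta2 alone and 54764 untreated. The 10 epithelial markers, 9 of them kept and none at 0, summed to 11677 with oxozeaenol, 2032 with SB431542, 1881 with TGF-beta2 alone and 1955 untreated. Most of the oxozeaenol sum came from the keratinocyte genes Krt6b (3060), Krt14 (2218), Krt13 (2023), Krt5 (1383) and Krtdap (951), none of which read above 295 on another array. Krt13 and Krtdap lay under the filter level on every other array, so they were kept only through the oxozeaenol array. The sums take in all listed markers on the array, kept or not. Cdh1 (463 with oxozeaenol against 257 untreated), Krt8 (684 against 563), Krt18 (400 against 304) and Epcam (366 against 369) differed by less than 2-fold from untreated. Cdh1 was lower on the other arrays, at 230 with TGF-beta2 alone and 191 with SB431542. Trp63, the marker not kept, read 128 with oxozeaenol, 52.0 with SB431542, 37.2 with TGF-beta2 alone and 26.1 untreated. The 4 skeletal muscle markers, 2 of them kept, summed to 164 with oxozeaenol, 383 with SB431542, 371 with TGF-beta2 alone and 401 untreated, with Des at 80.2 with oxozeaenol and 269 to 289 on the other arrays. In RNA from whole cultures, fewer cells of a type and less RNA per cell cannot be told apart.

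**Figure D1:**
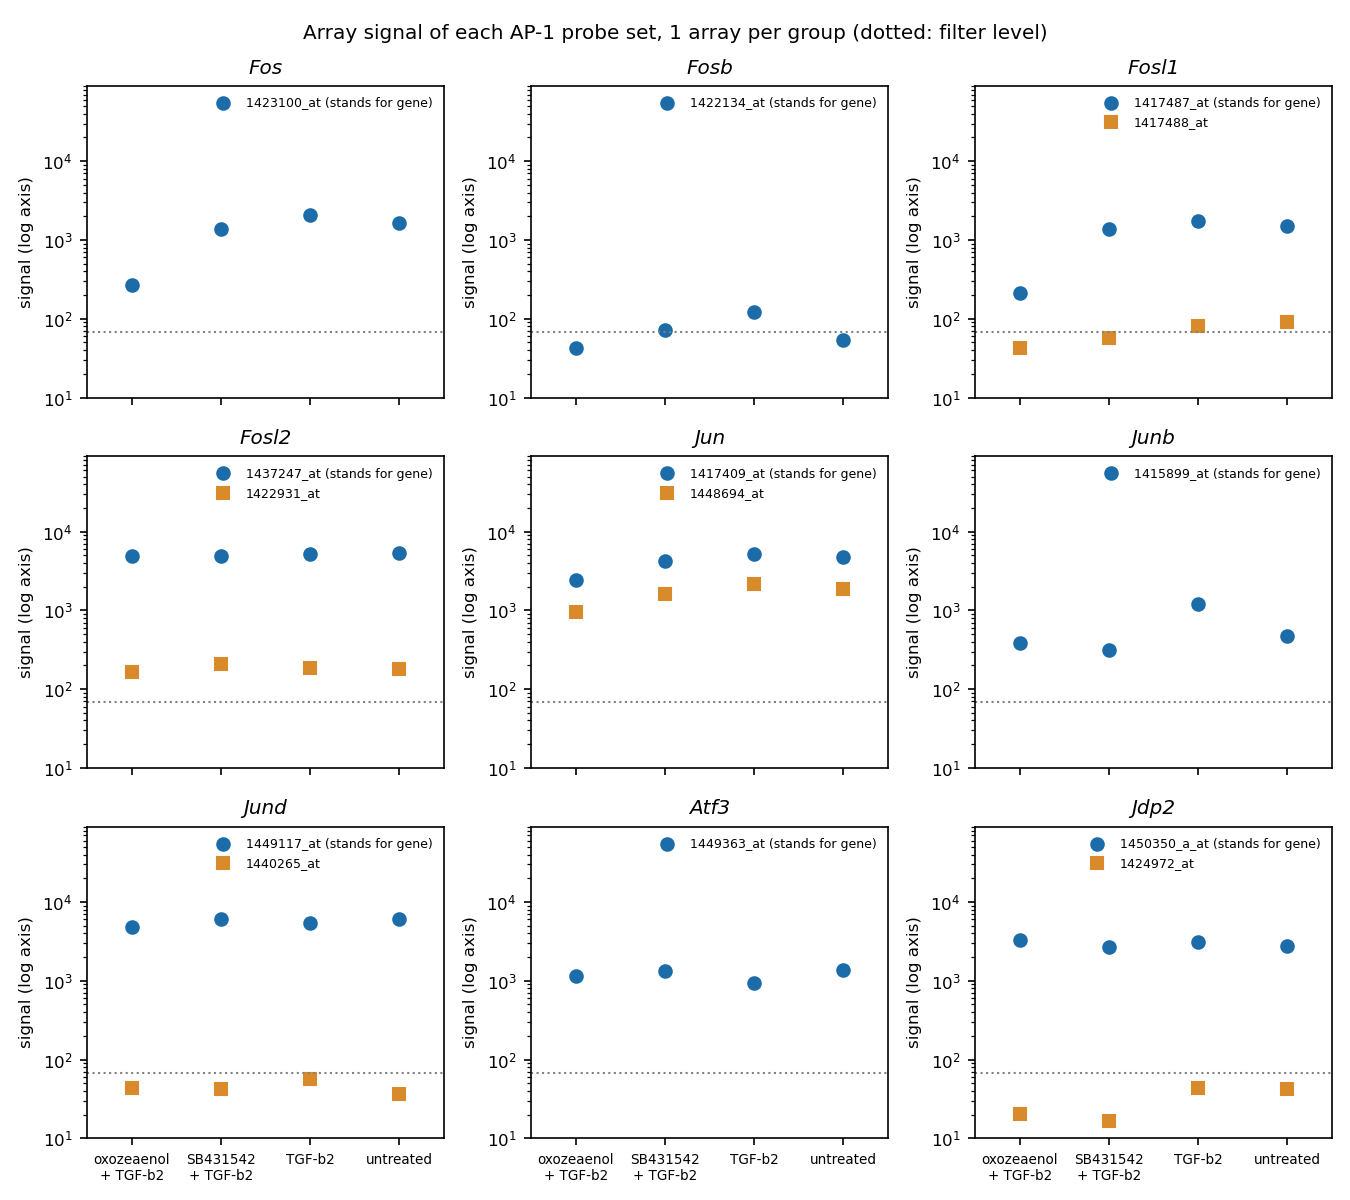
Signal (log axis) of the 14 AP-1 probe sets on the 4 arrays, with 1 point per array, circles for the probe set that stands for the gene, squares for a second one and a dotted line at the filter level of 67.9. Fos and Fosl1 are lowest with oxozeaenol, at 269 and 212, and Junb is highest with TGF-beta2 alone, at 1222.

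Among the Fos genes, Fos and Fosl1 were low with oxozeaenol and Fosb was highest with TGF-beta2 alone, while Fosl2 spanned little over the arrays. Fos, the founding immediate early member, read 269 with oxozeaenol, 1392 with SB431542, 2089 with TGF-beta2 alone and 1644 untreated. Its oxozeaenol reading lay far below the other 3. Fosl1, which encodes Fra-1 and lacks the strong activation domain of Fos, read 212 with oxozeaenol, 1372 with SB431542, 1722 with TGF-beta2 alone and 1519 untreated. The order of its arrays was the same as for Fos. The second Fosl1 probe set was dim, with 42.7 with oxozeaenol, 56.4 with SB431542, 81.6 with TGF-beta2 alone and 91.6 untreated. It too was lowest with oxozeaenol, but it was highest in the untreated culture.

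Fosb, an inducible Fos relative, read 42.5 with oxozeaenol, 71.0 with SB431542, 122 with TGF-beta2 alone and 54.3 untreated. Its oxozeaenol and untreated readings fell short of the filter level, and the size of its differences therefore depends on the pseudocount. Its mean signal of 72.6 passed the filter level of 67.9 only through the TGF-beta2 array. Fosl2, which encodes Fra-2, read 4859 with oxozeaenol, 4913 with SB431542, 5251 with TGF-beta2 alone and 5394 untreated. Its highest and lowest arrays were 1.11-fold apart, and those of its second probe set, at 167 to 209, were 1.22-fold apart.

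Among the Jun genes, Junb and Jun differed between arrays and Jund did so little. Junb, a Jun relative that can activate genes with Fos partners and in some settings opposes Jun, read 390 with oxozeaenol, 315 with SB431542, 1222 with TGF-beta2 alone and 468 untreated. The TGF-beta2 array stood above the other 3, and both inhibitor arrays lay below the untreated one. Jun, the partner of Fos and a substrate of the JNK kinases, read 2404 with oxozeaenol, 4281 with SB431542, 5185 with TGF-beta2 alone and 4687 untreated. Its second probe set gave 961 with oxozeaenol, 1621 with SB431542, 2142 with TGF-beta2 alone and 1886 untreated, the same order. Jund, the Jun gene with the steadiest expression in most cells, read 4812 with oxozeaenol, 6107 with SB431542, 5458 with TGF-beta2 alone and 6096 untreated, a span of 1.27-fold. Its second probe set, at 36.8 to 56.3, was not kept.

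Of the repressor-type members, Atf3, a stress-induced gene that TGF-beta induces through Smad3 in human epithelial cells, read 1149 with oxozeaenol, 1313 with SB431542, 948 with TGF-beta2 alone and 1368 untreated. It was the 1 member with its lowest signal on the TGF-beta2 array. Jdp2, the Jun dimerization protein, read 3288 with oxozeaenol, 2709 with SB431542, 3073 with TGF-beta2 alone and 2722 untreated, a span of 1.21-fold. Its second probe set, at 16.4 to 43.7, was not kept. Over the 9 genes, 5 had their highest signal with TGF-beta2 alone (Fos, Fosb, Fosl1, Jun and Junb) and 6 their lowest with oxozeaenol (Fos, Fosb, Fosl1, Fosl2, Jun and Jund). Of all measured genes, 19.7% were highest with TGF-beta2 alone and 25.8% lowest with oxozeaenol. Because Fosb was kept only through its TGF-beta2 signal, its place among the 5 highest there is not independent of the filter.

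Sequence upstream of the genes that differed, with Atf3 beside them as one that did not, is given as 150 bases 5′ to 3′ on the gene's strand up to the base before the transcript start, from RefSeq on GRCm38.p6. Of the 9 genes 8 had an entry there, with 10 start windows in all, and Fosl1 was not among them. Capitals mark TGACG, the core of a cAMP response element (CRE), printed as CGTCA where it lies on the other strand, or TGACATCA, a CRE-like octamer.
Fos, chr12:85473740-85473889, plus strand: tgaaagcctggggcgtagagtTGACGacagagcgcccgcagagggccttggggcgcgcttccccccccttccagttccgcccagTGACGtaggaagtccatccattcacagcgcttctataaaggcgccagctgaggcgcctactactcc
Fosb, chr7:19310046-19310195, minus strand: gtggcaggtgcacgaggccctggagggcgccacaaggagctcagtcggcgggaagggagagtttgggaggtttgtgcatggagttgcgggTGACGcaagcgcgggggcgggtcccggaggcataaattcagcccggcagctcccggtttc
Jun, chr4:95052223-95052372, minus strand: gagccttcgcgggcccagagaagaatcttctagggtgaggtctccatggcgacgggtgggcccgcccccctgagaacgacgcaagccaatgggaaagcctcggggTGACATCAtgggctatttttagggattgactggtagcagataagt
Junb, chr8:84978749-84978898, minus strand: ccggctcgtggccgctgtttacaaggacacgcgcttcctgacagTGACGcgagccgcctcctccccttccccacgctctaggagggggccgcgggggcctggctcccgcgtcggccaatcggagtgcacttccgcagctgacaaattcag
Atf3, chr1:191183334-191183483, minus strand: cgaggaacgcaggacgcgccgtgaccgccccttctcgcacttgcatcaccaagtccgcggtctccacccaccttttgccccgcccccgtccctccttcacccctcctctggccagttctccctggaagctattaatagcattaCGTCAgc

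Windows of 250 bases before to 50 bases after the start were searched on both strands for 6 motifs. These were the AP-1 element TGACTCA, the full CRE TGACGTCA, the ETS site CCGGAAGT, the Smad element GTCTAGAC, the CArG box bound by serum response factor and the STAT site TTCCNGGAA. None of the 10 AP-1 gene windows held any of them. Sequence outside these windows was not searched, so whether sites lie further from the starts was not tested. Over all 32851 windows the shares with a match were 5.20% for TGACTCA, 1.79% for TGACGTCA, 3.89% for CCGGAAGT, 0.213% for GTCTAGAC, 1.63% for the CArG box and 1.15% for the STAT site. After this result, the core TGACG, which the full CRE contains, and the octamer TGACATCA were added outside the plan. Their counts are descriptive only and are no evidence of enrichment. TGACG lay in 5 of the 10 windows and in 20.8% of all windows, at 129 and 66 bases before the start of Fos, 60 before Fosb, 106 before Junb, 7 before Atf3 and 114 before 1 of 3 starts of Jdp2. TGACATCA lay 45 bases before the start of Jun and in 3.62% of all windows. Genes with and without a 2-fold difference both held the core.

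The first comparison asks which AP-1 transcripts stood higher or lower 120 minutes after TGF-beta2. Junb was 2.54-fold higher, at 1222 with TGF-beta2 against 468 untreated. Of the 9 genes it was the 1 counted as higher and none was counted as lower. Of all genes, 0.732% were higher and 0.425% lower by this rule. In order of its increase Junb was gene 36 of 11756. Fosb came next with a log2 difference of 0.92, just short of 2-fold, on signals of 122 with TGF-beta2 and 54.3 untreated. With the pseudocount at the 10th percentile of all signals it was at 1.09 and would be counted.

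The other immediate early members were close to their untreated levels at this time. The log2 difference was 0.34 for Fos, 0.18 for Fosl1 and 0.15 for Jun, and the central 90% of all genes lay between −0.46 and 0.47. Jdp2 was at 0.17, Fosl2 at −0.04 and Jund at −0.16. Atf3 was at −0.52, with signals of 948 with TGF-beta2 against 1368 untreated, outside that central range but within 2-fold. The median of the 9 genes was 0.17, beside −0.03 for all genes.

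The next comparison asks which AP-1 levels differ between SB431542 followed by TGF-beta2 and TGF-beta2 alone. Receptor kinase activity was not measured. Junb was 3.69-fold lower with SB431542, at 315 against 1222 with TGF-beta2 alone. It was gene 22 of 11756 in order of decrease and the 1 of 9 genes counted as lower, with none counted as higher. Of all genes, 1.25% were lower and 0.706% higher. Fosb (−0.64) and Fos (−0.58) lay below the central 90% of genes, −0.52 to 0.53, without reaching 2-fold. Fosl1 was at −0.32, Jun at −0.28, Jdp2 at −0.18 and Fosl2 at −0.10. Jund, at 0.16, and Atf3, at 0.46, were on the other side of 0. The median of the 9 genes was −0.28, beside 0.03 for all genes.

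Against the untreated culture, no AP-1 gene was 2-fold apart with SB431542, where 0.536% of all genes were higher and 0.417% lower. Junb was furthest away at −0.54, with 315 with SB431542 and 468 untreated. Fosb was at 0.29, Fos at −0.24 and Fosl1 at −0.14, and the other 5 genes lay between −0.13 and 0.00. Tgfbr1, the gene of the kinase that SB431542 blocks, had signals of 3147 with SB431542, 4881 with TGF-beta2 alone and 3561 untreated.

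**Figure D2:**
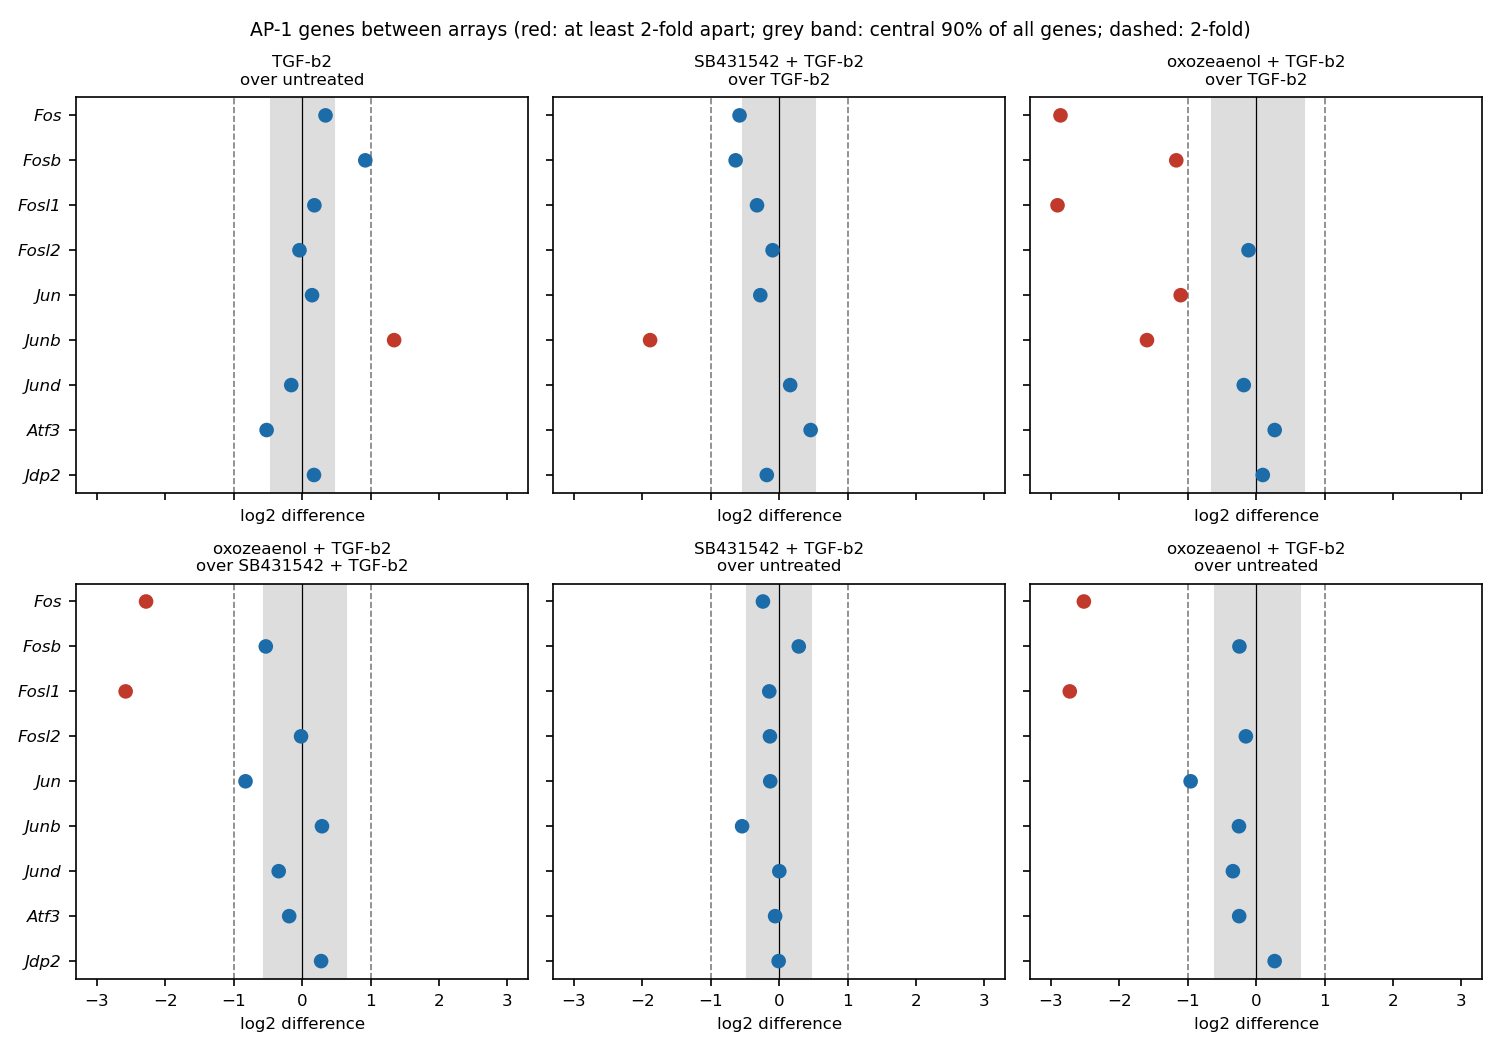
Log2 difference (horizontal axis) of the 9 AP-1 genes in the 6 comparisons, with 1 point per gene, red where the arrays are at least 2-fold apart, a grey band for the central 90% of all genes and dashed lines at 2-fold. Red points number 1 with TGF-beta2, 1 with SB431542 and 5 with oxozeaenol over TGF-beta2 alone.

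The oxozeaenol comparison asks which AP-1 levels differ between oxozeaenol followed by TGF-beta2 and TGF-beta2 alone. Tak1 activity was not measured on these arrays, so whether the differences run through Tak1 was not tested. Fosl1 was 7.47-fold lower, at 212 against 1722 with TGF-beta2 alone, and Fos was 7.25-fold lower, at 269 against 2089. They were genes 23 and 24 of 11756 in order of decrease. Junb was 3.02-fold lower, Fosb 2.25-fold and Jun 2.15-fold. These 5 of 9 genes were at least 2-fold lower and none was higher, where 2.19% of all genes were lower and 2.04% higher. Fosb passed the filter only through its TGF-beta2 signal, so its place among the 5 is not independent of that filter. Atf3 (0.27), Jdp2 (0.10), Fosl2 (−0.11) and Jund (−0.18) lay inside the central 90% of all genes, −0.65 to 0.70.

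Both Jun probe sets gave the same size of difference, −1.10 and −1.14. The dim second Fosl1 probe set was at −0.68, and with the mean of both probe sets Fosl1 was at −1.79. Fosb was at −0.78 with the pseudocount at the median signal, which leaves 4 genes counted. The summed epithelial markers given above were higher on this array, mostly through the keratinocyte genes named there, and the summed skeletal muscle markers were lower. The summed macrophage markers, bright on all arrays, were also lowest here, at 46970. What part any of these cell types had in the AP-1 values, and in the oxozeaenol values of the gene lists described further on, was not tested.

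**Figure D3:**
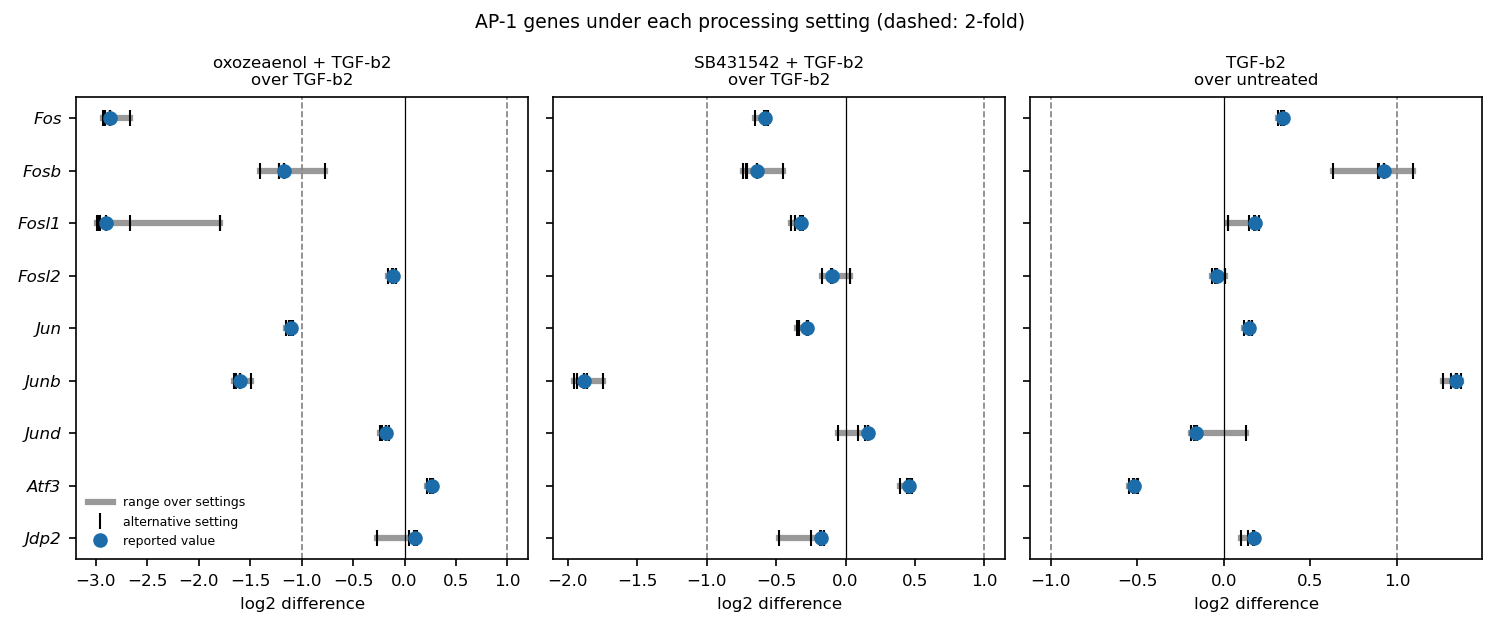
Log2 difference (horizontal axis) of the 9 AP-1 genes in 3 comparisons, with circles for the reported value, ticks for each alternative processing, grey bars for their range and dashed lines at 2-fold. With oxozeaenol Fosl1 ranges widest, reaching −1.79 with the mean of both probe sets, and Fosb reaches −0.78 with the pseudocount at the median.

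Set against the untreated culture, oxozeaenol left 2 AP-1 genes lower by 2-fold or more and none higher, beside 1.53% and 1.68% of all genes. The 2 were Fosl1, 6.6-fold lower at 212 against 1519, and Fos, 5.72-fold lower at 269 against 1644. With the mean of both probe sets Fosl1 was at −1.77, where the brighter one gave −2.72. Jun followed at −0.96 with both of its probe sets, and it passed 2-fold, at −1.04, when arrays were centred on their medians. Junb, at −0.25, and Fosb, at −0.24, lay near the untreated level. The remaining 4 genes lay between −0.34 (Jund) and 0.27 (Jdp2). Map3k7, which encodes Tak1, had signals of 575 with oxozeaenol, 551 with TGF-beta2 alone and 480 untreated.

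The inhibitors were also set against each other, both with TGF-beta2. Fosl1 was 5.97-fold lower with oxozeaenol, at 212 against 1372 with SB431542, and Fos was 4.86-fold lower, at 269 against 1392. With the mean of both probe sets Fosl1 was at −1.43, where the brighter one gave −2.58. These were the 2 of 9 genes at least 2-fold apart, beside 1.32% of all genes lower and 1.7% higher. Jun was at −0.83, beyond the central 90% of genes (−0.56 to 0.64), and its second probe set at −0.74. Fosb was at −0.53. Junb had the opposite sign, 0.29, with 390 with oxozeaenol and 315 with SB431542, so Junb was below its untreated level with both inhibitors, by less than 2-fold, while Fos and Fosl1 were more than 2-fold below it with oxozeaenol. Whether the inhibitors differ for any of these genes beyond the variation between cultures could not be tested. The inhibitor doses are not stated in the labels.

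**Figure D4:**
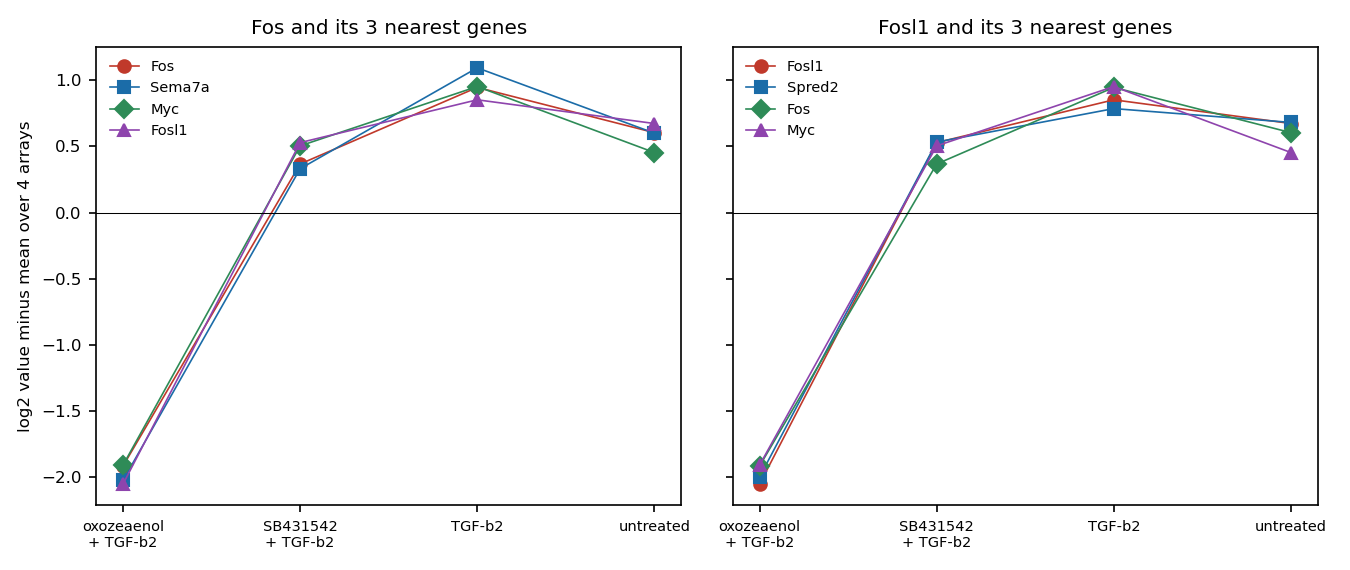
Log2 values minus their mean over the 4 arrays (vertical axis) for Fos, Fosl1 and the 3 genes nearest to each, with 1 point per array and lines to guide the eye. All 5 genes are lowest with oxozeaenol and highest with TGF-beta2 alone.

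Of the 9 genes, Fos and Fosl1 spanned at least 4-fold over the arrays, and the genes with the most similar profiles were looked up for both. Likeness was the Euclidean distance between the 4 log2 values, each gene centred on its own mean, so it rests on 4 arrays. Nearest to Fos were Sema7a, a membrane-anchored semaphorin gene, at 0.19, the transcription factor gene Myc at 0.20 and Fosl1 at 0.24. Nearest to Fosl1 were Spred2, an inhibitor of Ras and ERK signalling, at 0.09, Fos at 0.24 and Myc at 0.28. Spred2 read 327 with oxozeaenol, 1988 with SB431542, 2373 with TGF-beta2 alone and 2206 untreated. Among the other AP-1 genes Jun came closest to Fos, at 1.39 and place 142, and also to Fosl1, at 1.54 and place 146. Junb was at place 1423 from Fos and 2339 from Fosl1.

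**Figure D5:**
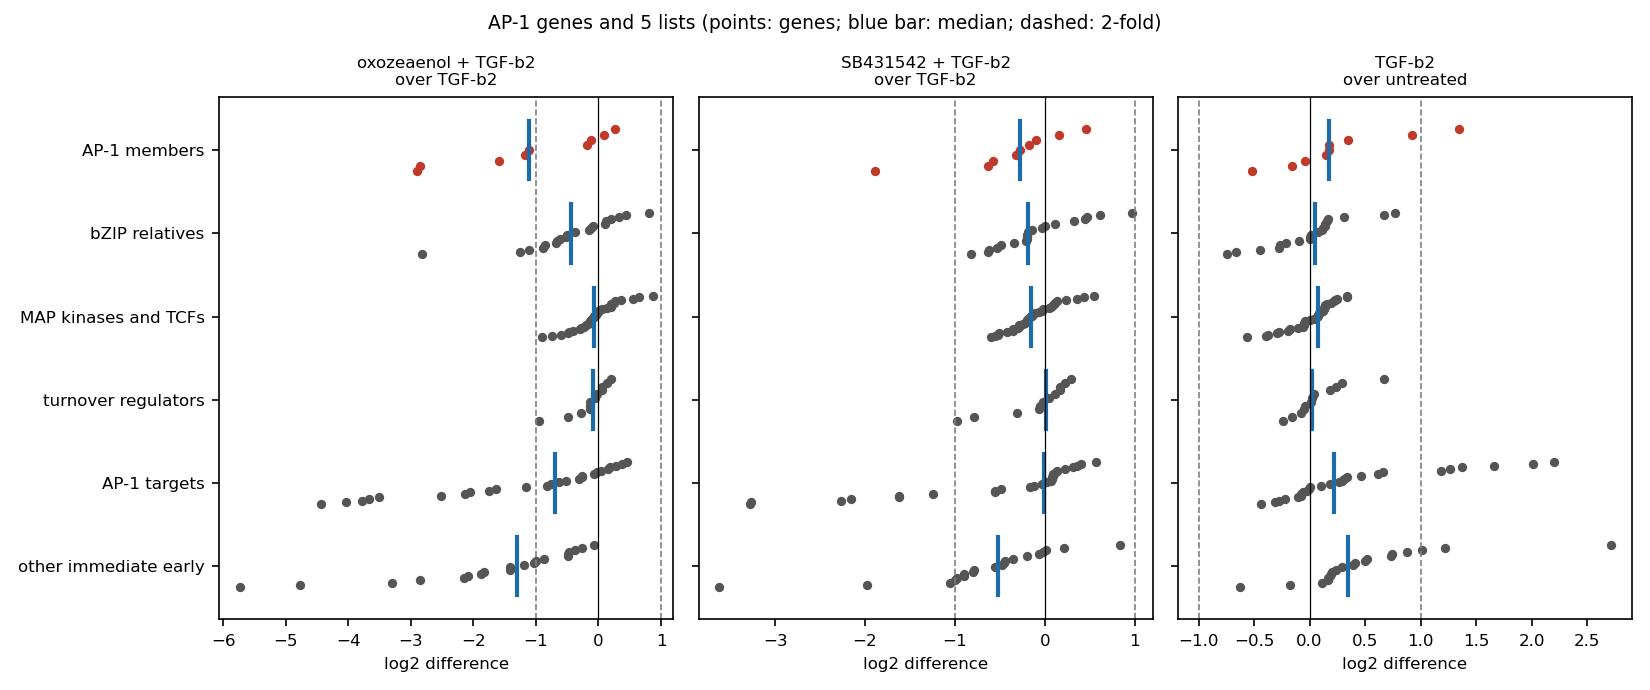
Log2 difference (horizontal axis) of each AP-1 gene (red) and of each measured gene in 5 related lists (grey) in 3 comparisons, with blue bars at the medians and dashed lines at 2-fold. With oxozeaenol the medians are −1.10 for the AP-1 genes, −1.30 for other immediate early genes and −0.07 for MAP kinases and ternary complex factors.

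Genes of the wider basic leucine zipper (bZIP) class, relatives of the AP-1 genes, were counted by the same rule. Of 20 measured relatives, none was 2-fold apart with TGF-beta2 over untreated, where 0.732% of all genes were higher and 0.425% lower. None was so with SB431542 over TGF-beta2 alone, where the shares were 0.706% and 1.25%. At these shares a count of 0 among 20 genes is close to that of all genes. With oxozeaenol over TGF-beta2 alone 3 were lower and none higher, beside 2.19% and 2.04% of all genes. Maff, a small Maf protein gene, read 225 with oxozeaenol, 970 with SB431542, 1726 with TGF-beta2 alone and 1006 untreated, a log2 difference of −2.82 between oxozeaenol and TGF-beta2 alone. Creb5 was at −1.26 and Cebpd, an inflammatory C/EBP gene, at −1.10. The other 17 were within 2-fold, among them Atf2 (0.32), a Jun partner, and Atf4 (−0.15). The median was −0.43 with oxozeaenol, beside 0.05 for all genes. Against untreated the same 3 genes and Batf (−1.10), which encodes a partner of Jun in lymphocytes, were lower with oxozeaenol. None was higher, beside 1.53% of all genes lower and 1.68% higher.

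None of 32 measured MAP kinases, upstream kinases, ternary complex factors and serum response factor partners was 2-fold apart in any of the 6 comparisons, and Creb1 is in this list and among the bZIP relatives. The largest shares of all genes counted were 2.19% lower and 2.04% higher, with oxozeaenol over TGF-beta2 alone, so a count of 0 among 32 is near the background. The list's median was −0.07 with oxozeaenol over TGF-beta2 alone (0.05 for all genes), −0.16 with SB431542 over TGF-beta2 alone (0.03) and 0.07 with TGF-beta2 over untreated (−0.03). Elk3, a ternary complex factor gene, was at −0.90 with oxozeaenol, and the kinase genes Map2k3 (−0.74) and Mapk8 (0.35) were within 2-fold. Of 12 regulators of AP-1 protein or transcript turnover none was 2-fold apart when either inhibitor was set against TGF-beta2 alone or TGF-beta2 against untreated, again near the background shares for a list of this size. The ubiquitin ligase subunit gene Fbxw7, which acts on Jun, was at −0.97 with SB431542. Zfp36l2, whose product destabilises AU-rich transcripts, was at −0.95 with oxozeaenol over TGF-beta2 alone and at −1.11 over untreated.

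Of 26 measured textbook AP-1 targets, TGF-beta2 had 6 higher by 2-fold or more and none lower, beside 0.732% and 0.425% of all genes. Their median was 0.22, beside −0.03 for all genes. These were the cytokine genes Lif (2.20), Il11 (2.01) and Il6 (1.66), the growth factor genes Vegfa (1.37) and Hbegf (1.18), and Sphk1 (1.26), a sphingosine kinase gene. The list was written with results of these data known, so its direction is not independent evidence. With SB431542 those 6 and Ptgs2 (−1.24), a prostaglandin synthase gene, were lower and none was higher, beside 1.25% and 0.706% of all genes, and the median was −0.01 (0.03 for all genes). With oxozeaenol 11 were lower and none higher, beside 2.19% and 2.04% of all genes, with a median of −0.69 (0.05 for all genes). Plau and Plaur, the urokinase and urokinase receptor genes, were at −1.64 and −1.75, Ccl2 at −2.51 and Hmga2 at −2.13, all 4 within 2-fold with SB431542. Other classical targets were within 2-fold, such as the collagenase gene Mmp13 (−0.01), Timp1 (−0.27) and the cyclin gene Ccnd1 (−0.63).

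On the TGF-beta2 array, 3 of 20 other immediate early genes stood 2-fold or more above untreated: Egr2 (2.72), Egr1 (1.22) and Ier2 (1.01). None was lower, and 0.732% of all genes were higher and 0.425% lower. With SB431542, where 1.25% of all genes were lower, 4 of the list were lower, Egr2 (−3.62), Nr4a3 (−1.98, on signals of 11.4 against 108), Egr3 (−1.05) and Ier5, at 2046 against 4125. With oxozeaenol 13 were lower and none higher, beside 2.19% and 2.04% of all genes, with a median of −1.30 (0.05 for all genes), including Egr1 (−5.73), Myc (−2.86) and Klf2 (−2.15). Zfp36, within 2-fold throughout, is in this list and among the turnover regulators. Of these 20 genes, 15 had their lowest signal with oxozeaenol and 17 their highest with TGF-beta2 alone, beside 25.8% and 19.7% of all genes.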

How the data were processed

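The deposited values are array intensities, 1 per probe set and array, on a linear scale. Per the submitters' processing notes they came from GCOS, software for Affymetrix arrays, with no version or settings stated. With the lowest and highest 2% of values set aside, each array had a mean of 500.0. From the deposited intensities, 64 control probe sets were removed, 34945 of 45037 others had 1 gene symbol, and log2(value + 21.7), with the pseudocount at the 25th percentile, was computed with Python 3.11.15, numpy 2.4.6 and pandas 2.3.3. Counting was tested on simulated data with large changes planted in bright genes only. That check does not cover dim genes such as Fosb or the spread between cultures. Each group held 1 array, which limits precision, so a rule of size replaced tests. Alternatives were 2 pseudocounts, quantile normalization, median centring, no or a stricter filter, and the mean of a gene's probe sets.

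The members and gene lists were chosen with earlier results of these data known. Named genes are all members, list genes at least 2-fold apart or otherwise among the largest differences, cell type markers, and the 3 genes nearest to each member spanning 4-fold. Mmp13, Timp1, Ccnd1, Atf2, Atf4 and Mapk8 were named outside this rule, after their values were seen.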

Additional observations from a re-analysis of the deposited data

How the results depend on the processing

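Each of the 54 AP-1 gene differences was recomputed under up to 8 alternatives, of which no filter with the mean of all probe sets, and all alternatives for the gene lists, were chosen after seeing the data. Of 426 recomputed values, 423 kept their side of the 2-fold rule and none past 2-fold changed sign. The exceptions were Fosb and Jun as given above, and 15 values within 2-fold, of Fosl2, Jund and Jdp2, changed sign. Many of the 426 values could not change. A change of filter alone repeats a member's reported value, and averaging repeats it where only 1 probe set enters. The 423 therefore overstate how far the values were tested. Fosb was not measured with the filter at the 75th percentile. With TGF-beta2, 2 members were counted as higher with the pseudocount at the 10th percentile, beside 1.05% of all genes higher and 0.604% lower. Median centring moved the median of all genes to −0.11 for SB431542 over untreated. Among list counts, no filter gave 1 bZIP relative (Batf2) for SB431542 over TGF-beta2 and over untreated, with or without averaging, and unfiltered averages left 1 for oxozeaenol over TGF-beta2. With no filter and no averaging, 2.58% of all genes were higher and 2.26% lower for SB431542 over TGF-beta2. Over untreated these shares were 2.55% and 1.44%. The stricter filter left 2 bZIP relatives for oxozeaenol over SB431542 and over untreated. For turnover regulators, median centring counted 1 with either inhibitor over TGF-beta2, and unfiltered averages left 0 for oxozeaenol over SB431542 and over untreated. The median pseudocount left 1 AP-1 target for SB431542 over untreated. Of other immediate early genes, 2 were counted for SB431542 over TGF-beta2 with the median pseudocount, the stricter filter or unfiltered averages, and over untreated 2 with median centring or no filter and 0 with the stricter filter. In the settings and comparisons named here for the lists, the share of all genes counted in a given direction lay between 0.0987% and 2.58%. No result is read from these shifts in list counts. The cause of these shifts was not tested, and the other list counts stayed within 1.5 times. Counts of all genes past 2-fold moved most under the filter on low signals. For oxozeaenol over TGF-beta2 they were lowest at the 75th percentile, 71 higher and 157 lower, where the reported counts were 240 and 258. They were highest unfiltered, 593 and 521. The genes tested numbered 7093 at the 75th percentile, 11756 as reported and 18193 unfiltered. In that order the shares were 1.00%, 2.04% and 3.26% higher, and 2.21%, 2.19% and 2.86% lower. In the ranges below, the lowest counts are among 7093 genes and the highest among 18193. The lowest and highest counts over the alternatives were 24 to 470 higher (83 reported) and 69 to 412 lower (147) for SB431542 over TGF-beta2, and 37 to 353 higher (86) and 18 to 281 lower (50) for TGF-beta2 over untreated. They were 55 to 535 higher (200) and 90 to 483 lower (155) for oxozeaenol over SB431542, 9 to 464 higher (63) and 7 to 262 lower (49) for SB431542 over untreated, and 54 to 568 higher (198) and 106 to 361 lower (180) for oxozeaenol over untreated. Single arrays, and dim signals for Fosb and the second Fosl1 probe set, limit the precision.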

Other observations

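On the TGF-beta2 array, where Atf3 had its lowest signal, 3 of 20 bZIP relatives and 6 of 32 kinases and factors were also lowest, a smaller share in both lists than the 30.8% of all genes. The genes named here were chosen after their values were seen. Ddit3, a stress-induced partner gene of the same class, read 2882 with oxozeaenol, 3224 with SB431542, 1634 with TGF-beta2 alone and 2600 untreated. Maf read 5489 with oxozeaenol, 5580 with SB431542, 4025 with TGF-beta2 alone and 6747 untreated. The p38 kinase gene Mapk14 read 1767 with oxozeaenol, 2245 with SB431542, 1527 with TGF-beta2 alone and 1991 untreated. None of these 3 genes was 2-fold apart in any of the 6 comparisons.

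Dusp1, an immediate early gene for a phosphatase that inactivates JNK and p38, read 387 with oxozeaenol, 1914 with SB431542, 1063 with TGF-beta2 alone and 1650 untreated, so it was lower with TGF-beta2 alone than with SB431542 or untreated, by less than 2-fold.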
